A study of Mus musculus with 9 samples.

Results

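The glypicans are a family of 6 genes, Gpc1 to Gpc6, and their transcripts were followed here in mouse megakaryocyte-erythroid progenitors (MEPs), the bone marrow cells from which red cells and platelet-forming megakaryocytes descend. The members were taken by gene symbol, 6 of the 35275 identifiers in the read count table. The family was chosen by the measured log2 fold changes between HS3A8-high and HS3A8-low cells, where Gpc4 stood out, so glypican values in that comparison are given as a description, without a test. Counts were present for 4 of the 6 genes, and 3 passed the filter on low counts (Gpc1, Gpc2 and Gpc4).

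MEPs had been sorted as Lin-ckit+CD34-FcγRII/IIIlo cells and 25000 cells went into each bulk RNA-seq library. HS3A8 is a single-chain antibody fragment that binds certain modification patterns of heparan sulfate (HS), and MEPs were split by how much of it they bound into HS3A8-high cells (the top 50%) and HS3A8-low cells (the bottom 50%). The third group, the MPB49 control, was stained with an antibody fragment that does not bind HS, so it represents total MEPs. Each group had 3 libraries, with no treatment or mutation named for any, and the study's methods describe age-matched and sex-matched animals of 6 to 12 weeks with C57BL/6 as the wild-type strain. The study describes the replicates of the sorted fractions as individual mice, and whether libraries of the same number came from the same mouse is not given in the sources used here.

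A glypican is a core protein held on the outer face of the cell membrane by a glycosylphosphatidylinositol (GPI) anchor, with HS chains attached to serines close to the membrane. The chains bind growth factors and morphogens, among them Wnt, Hedgehog, bone morphogenetic protein and fibroblast growth factor ligands, and glypicans are known to move such ligands toward or away from their receptors. The antibody reads the sugar chain and not the core protein, and several other core proteins carry the same kind of chain.

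HS chains are built on serines that are followed by glycine, so the coding stretch richest in such pairs among the last 120 codons is shown for each member. Some members have further pairs outside the stretch. Which core proteins carried the chains on which the cells were sorted was not tested. Each line is 18 codons of the GRCm38 reference (GENCODE release M21), read 5′ to 3′ on the coding strand, with the serine-glycine codon pairs in capitals.

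Gpc1: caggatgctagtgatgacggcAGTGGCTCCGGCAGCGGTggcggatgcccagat
Gpc2: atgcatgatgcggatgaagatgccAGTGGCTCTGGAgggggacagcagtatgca
Gpc3: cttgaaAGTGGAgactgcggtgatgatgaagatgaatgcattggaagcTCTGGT
Gpc4: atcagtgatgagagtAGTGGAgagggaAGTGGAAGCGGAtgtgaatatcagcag
Gpc5: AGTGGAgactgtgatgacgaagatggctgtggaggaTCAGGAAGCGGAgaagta
Gpc6: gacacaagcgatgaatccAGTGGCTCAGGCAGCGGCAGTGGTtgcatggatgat

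All 6 stretches lie in coding exons. The Gpc4 stretch is at chrX:52053677-52053820 on the minus strand and crosses an exon junction, as do those of Gpc1 (chr1:92858021-92858375, plus strand), Gpc2 (chr5:138274529-138275467, minus strand) and Gpc6 (chr14:117964868-117974930, plus strand). The stretches of Gpc3 (chrX:52314880-52314933, minus strand) and Gpc5 (chr14:115788254-115788307, plus strand) each lie within 1 exon. The stretch held 4 serine-glycine pairs in Gpc6, 3 each in Gpc1, Gpc4 and Gpc5, and 2 each in Gpc2 and Gpc3. Gpc4, whose transcripts differed most between the sorted cells, was thus not the member with the most pairs.

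Over the whole translated coding sequence, Gpc4 was most like Gpc6, with 64.6% identical residues. Its identity was 44.3% with Gpc1, 41.6% with Gpc2, 29.5% with Gpc5 and 27.9% with its chromosomal neighbour Gpc3. Gpc3 was most like Gpc5, at 43.7%. The closest relative of Gpc4 by sequence was therefore not the gene beside it.

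Library totals ran from 11781637 to 15850037 counts, and 1 count was worth little at that depth: 3 counts, the limit that a count of 0 allows, correspond to between 0.175 and 0.282 CPM (counts per 1000000 library counts). CPM values below were scaled by trimmed mean of M-values (TMM) factors over all 9 libraries, and levels are compared between genes only per exon length, as TPM (counts per exon base, scaled to the same total in each library). Control replicate 1 stood apart, with a TMM factor of 0.865 against 0.988 to 1.08 in the other libraries. In bulk RNA, fewer cells that express a gene and less RNA per cell cannot be told apart.

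Gpc4 (ENSMUSG00000031119, chrX:52053021-52165252, minus strand), a glypican known for regulating Wnt and bone morphogenetic protein signals, was the main glypican transcript of MEPs. In HS3A8-high cells it was at 38.7, 41.7 and 41.6 CPM in replicates 1 to 3. In HS3A8-low cells it was at 3.8, 5.13 and 1.85 CPM. The control libraries were at 28.2, 32.1 and 24.9 CPM. The groups did not overlap: every HS3A8-high library lay above every control library, and every control library lay above every HS3A8-low library.

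**Figure D1:**
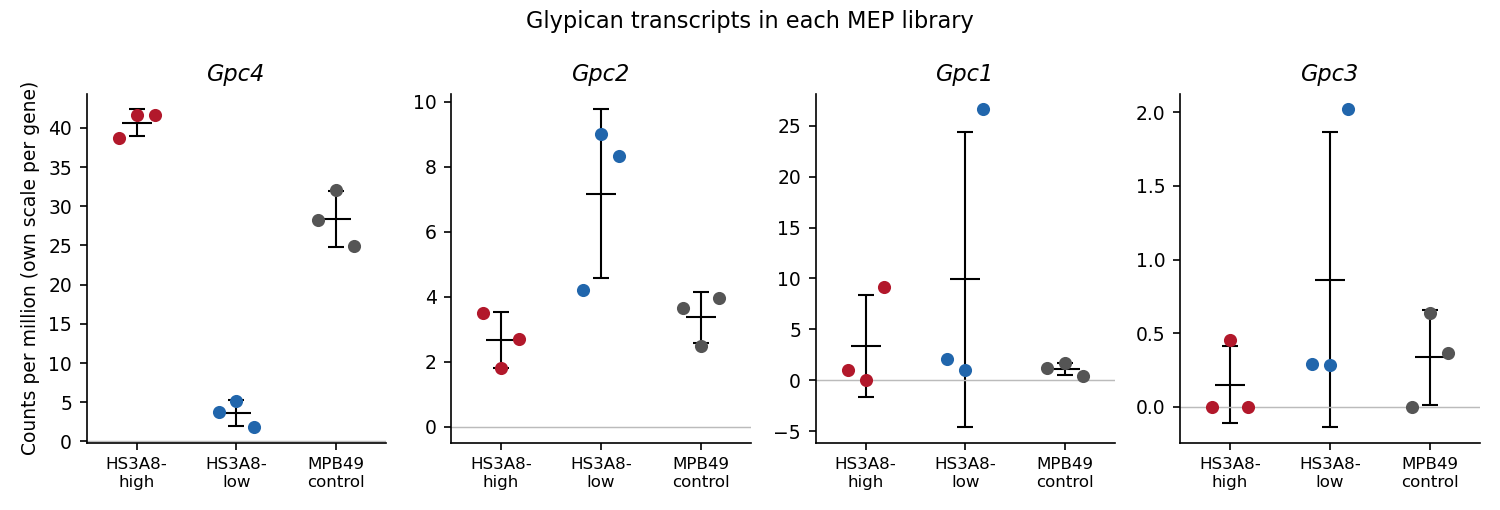
CPM of the 4 glypicans with counts, on a separate vertical scale for each gene, in the 3 MEP groups; each point is 1 library, and the bar and whiskers are the mean and SD of 3 libraries. Gpc4 sits between 38.7 and 41.7 CPM in HS3A8-high cells and between 1.85 and 5.13 CPM in HS3A8-low cells, while Gpc1 and Gpc3 are each carried mainly by replicate 3 of HS3A8-low.

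The mean of Gpc4 was 40.6 ± 1.72 CPM (SD, n = 3) in HS3A8-high cells, 3.59 ± 1.65 CPM (SD, n = 3) in HS3A8-low cells and 28.4 ± 3.6 CPM (SD, n = 3) in the control. Its difference between the fractions was 3.46 on the log2 scale (SE 0.349), an 11-fold higher level in HS3A8-high cells, and no other of the 11791 genes tested had a larger log2 fold change in that direction. Leaving out replicate 3 of HS3A8-low, the lowest library, the log2 difference was 3.16. The spread of Gpc4 counts within HS3A8-high cells was 1.11 times that of counting alone (chi-square per degree of freedom), against 9.47 times within HS3A8-low cells and 6.63 times within the control. In CPM the SDs of the fractions were alike, at 1.72 and 1.65. Replicate 3 of HS3A8-low, with 22 counts, had the lowest Gpc4 level of its group.

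Against the control, the difference of Gpc4 was larger on the low side than on the high side. In HS3A8-low cells Gpc4 was 2.97 lower on the log2 scale than in the control (log2 fold change -2.97, SE 0.379), in 3 of 3 libraries. It ranked 1 of 11878 genes by p, but the adjusted p of edgeR's quasi-likelihood test was 0.488 and the difference was not called. DESeq2's Wald test gave the same difference an adjusted p of 7.58e-11, and over 12 alternatives the adjusted p ran from 7.58e-11 to 0.994. In HS3A8-high cells Gpc4 was 0.53 higher on the log2 scale than in the control (SE 0.159), with an adjusted p of 0.705 by edgeR, and adjusted p-values from 0.172 to 0.946 over the alternatives. These differences share libraries with the comparison that singled out Gpc4 and are no independent check on it.

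Few genes of any kind passed in the comparisons with the control. No gene of 11878 was called between HS3A8-low cells and the control by edgeR (0% in each direction), where 673 had an unadjusted p under 0.05 and DESeq2 called 94. Between HS3A8-high cells and the control 2 of 11486 genes were called, both higher in the control (0.0174%, and 0% higher in HS3A8-high), where DESeq2 called 138. The groups did not overlap for 12.8% of genes in HS3A8-low against control and for 14.2% in HS3A8-high against control. Of the 3 glypicans tested, Gpc2 and Gpc4 did not overlap between HS3A8-low cells and the control, and Gpc4 alone did not between HS3A8-high cells and the control.

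The control holds total MEPs, so its level can be placed between those of the fractions. The midpoint of the fraction means was 22.1 CPM for Gpc4, and the control mean of 28.4 CPM lay above it. A mixture of the fractions with a weight of 0.670 on HS3A8-high would have the control's mean, and the single control libraries gave weights of 0.576 to 0.770. For Gpc2 the corresponding weight was 0.846, with single control libraries from 0.715 to 1.04. For Gpc1 it was 1.35, with the control mean below both fraction means, but this rested on replicate 3: the weight was 0.936 without HS3A8-high replicate 3 and 0.42 without replicate 3 of both fractions, where the control mean lay between those of the fractions.

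The contrast of the control with the mean of both fractions on the log2 scale gave 1.23 for Gpc4 (SE 0.243), with an adjusted p of 0.746 by edgeR and 0.00323 by DESeq2. An equal mixture of fractions that differ lies above the mean of their log2 levels. A positive value therefore follows in part from the difference that singled out Gpc4, and this contrast is no independent check on it. Neither Gpc1 (-2.37, SE 1.48) nor Gpc2 (-0.38, SE 0.353) passed, with adjusted p-values of 0.746 and 0.769 by edgeR. Without replicate 3 of both fractions the contrast of Gpc1 was 0.28. No gene of 12108 was called in either direction (0%) by edgeR, where 385 had an unadjusted p under 0.05 and DESeq2 called 14.

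Per exon length, Gpc4 made up most of the glypican transcripts in 2 of the 3 groups. Gpc4 accounted for 92.2 ± 4.96% (SD, n = 3) of glypican TPM in HS3A8-high cells and 90.4 ± 1.17% (SD, n = 3) in the control. In HS3A8-low cells its share was 48.8%, 44.6% and 8.15% in replicates 1 to 3, and Gpc1 held 60.3% in replicate 3. The summed glypican level had the same order as Gpc4, with 53.6 ± 3.32 TPM in HS3A8-high cells, 34.6 ± 9.36 TPM in the control and 16.8 ± 7.74 TPM in HS3A8-low cells (SD, n = 3 each).

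**Figure D2:**
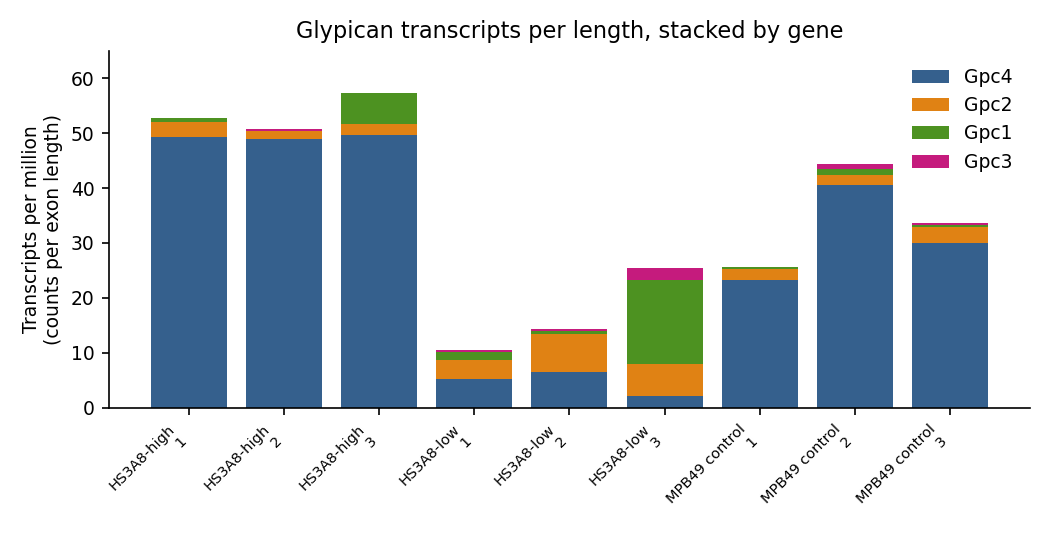
Glypican transcripts per exon length (TPM) in each library, with Gpc4, Gpc2, Gpc1 and Gpc3 stacked. HS3A8-high libraries reach 50.9 to 57.3 TPM and are nearly all Gpc4, while replicate 3 of HS3A8-low reaches 25.5 TPM and is mostly Gpc1.

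Gpc2 (ENSMUSG00000029510, chr5:138273655-138280005, minus strand), a glypican best known from the developing nervous system, was low and ran the other way. Its levels were 3.51, 1.81 and 2.71 CPM in HS3A8-high replicates 1 to 3. In HS3A8-low cells they were 4.21, 9 and 8.32 CPM. In the control they were 3.67, 2.49 and 3.96 CPM. The HS3A8-low libraries lay above all others, while the control and HS3A8-high libraries overlapped.

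Gpc2 was 1.44 lower on the log2 scale in HS3A8-high than in HS3A8-low cells (log2 fold change -1.44, SE 0.405), a description for the reason given above. It was 1.09 higher in HS3A8-low cells than in the control (SE 0.405, 3 of 3 libraries), with an adjusted p of 0.805 by edgeR, and 0.31 lower in HS3A8-high cells than in the control (log2 fold change -0.31, SE 0.406, adjusted p 0.768 by edgeR). Its exon bases are shared to 55.6% with Gm43720, a read-through gene on the same strand, so how reads were assigned between them is uncertain.

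Gpc1 (ENSMUSG00000034220, chr1:92831645-92860779, plus strand), a glypican found in many tissues, was uneven between libraries of the same group. It had 16, 0 and 138 counts in HS3A8-high replicates 1 to 3, or 1, 0 and 9.13 CPM. In HS3A8-low cells it was at 2.11, 0.984 and 26.6 CPM, and in the control at 1.22, 1.66 and 0.440 CPM. Both replicates 3 of the sorted fractions stood above the 7 other libraries, and all 3 groups overlapped.

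The log2 difference of Gpc1 between HS3A8-high and HS3A8-low cells was -1.57 with an SE of 1.64, and it was 1.09 without replicate 3 of HS3A8-low alone. Within each replicate number Gpc1 was lower in HS3A8-high cells, in 3 of 3 pairs, with a log2 difference of -1.70 (SE 0.516) with replicate numbers as a block and -1.57 without replicate 3 of both fractions. Its adjusted p was 0.840 in HS3A8-low cells against the control (log2 fold change 3.14, SE 1.26) and 0.733 in HS3A8-high cells against the control (1.62, SE 1.42), both by edgeR. Without replicate 3 these were 0.49 and -1.08 on the log2 scale. A stretch of 18.9% of its exon bases is overlapped by Ankmy1 on the other strand, a gene with at most 7 counts in any library.

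The same 2 libraries were the richest in granulocyte-monocyte transcripts. The 14 granulocyte-monocyte markers, such as the granule enzymes Mpo and Elane, summed to 2039 CPM in replicate 3 of HS3A8-high and 5239 CPM in replicate 3 of HS3A8-low. The other HS3A8-high libraries were at 25.4 and 13.7 CPM, the other HS3A8-low libraries at 170 and 308 CPM, and the control libraries at 120 to 227 CPM. All 14 markers had counts in both replicates 3, and no marker of the list was at 0 in every library. Gpc4 was at 41.6 CPM in replicate 3 of HS3A8-high, between the values of the other 2 HS3A8-high libraries, and at 1.85 CPM in replicate 3 of HS3A8-low, the lowest of all 9. The part of these markers in the Gpc1 and Gpc4 values was not tested.

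**Figure D3:**
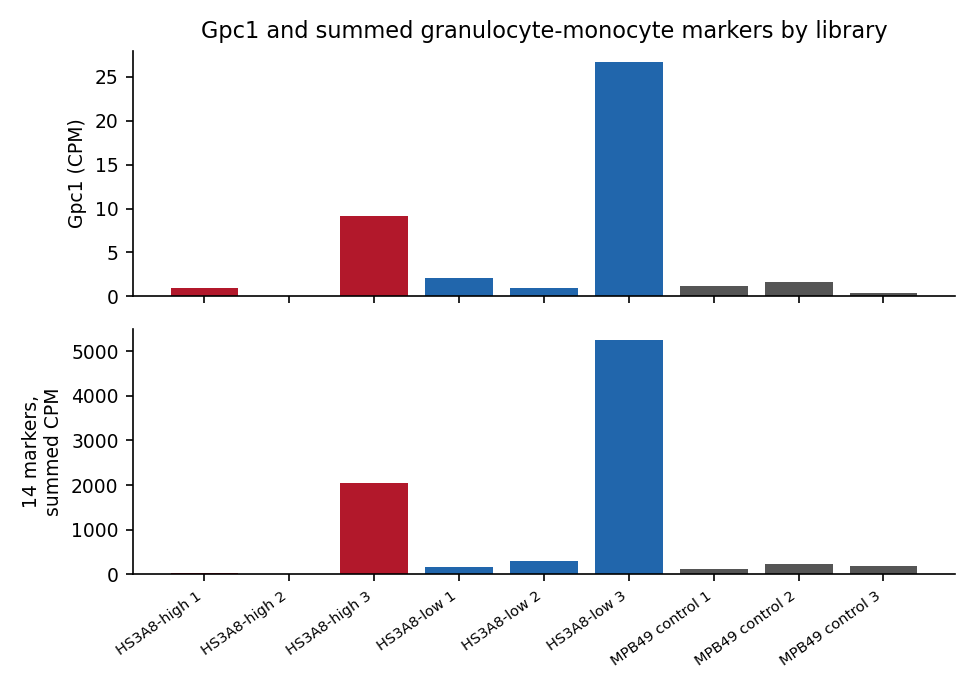
Gpc1 in CPM (top) and the summed CPM of 14 granulocyte-monocyte markers (bottom) in each of the 9 libraries, 1 bar per library on linear axes that start at 0. Both are highest in replicate 3 of HS3A8-low (26.6 and 5239 CPM) and next highest in replicate 3 of HS3A8-high (9.13 and 2039 CPM).

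Gpc3 (ENSMUSG00000055653, chrX:52272426-52613950, minus strand), a glypican that binds Hedgehog ligands and is named in an overgrowth syndrome of humans, was close to the limit of detection. It had 54 counts in all over 6 libraries, of which 24 were in replicate 3 of HS3A8-low. Its group means were 0.150 ± 0.261 CPM in HS3A8-high cells, 0.863 ± 0.999 CPM in HS3A8-low cells and 0.335 ± 0.320 CPM in the control (SD, n = 3 each). It did not pass the filter on low counts and the groups overlapped.

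Gpc5 (ENSMUSG00000022112, chr14:115092215-116525179, plus strand) and Gpc6 (ENSMUSG00000058571, chr14:116925315-117976544, plus strand) had no counts in any of the 9 libraries, which allows up to 0.175 to 0.282 CPM in a library. The closest relative of Gpc4 by sequence, Gpc6, was thus not detectable at this depth. The order of the family over all 9 libraries was Gpc4 at 28.4 TPM, Gpc2 at 3.25, Gpc1 at 2.85 and Gpc3 at 0.525 TPM. The values of Gpc1 and Gpc2 overlapped, so their order is not settled beyond the spread between libraries.

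Gpc3 and Gpc4 lie 107.2 kb apart on the X chromosome and are read from the same strand, but their highest groups differed: HS3A8-high for Gpc4 and, mostly through 1 library, HS3A8-low for Gpc3. Besides Gpc4 itself, 4 genes within 1 Mb of Gpc4 reached 1 CPM in a group mean, and their log2 differences between HS3A8-high and HS3A8-low cells ran from -0.32 to 0.11. Hprt, a purine salvage enzyme, was at 320 ± 35.6 CPM in HS3A8-high cells and 317 ± 56.7 CPM in HS3A8-low cells (SD, n = 3 each). Phf6, a chromatin protein, was at 114 ± 11.2 and 107 ± 9.87 CPM (SD, n = 3 each). None of the 4 was called (adjusted p 0.652 to 0.97 by edgeR), against 0.611% of the 11791 genes tested called higher in HS3A8-high cells and 3.21% called higher in HS3A8-low cells. These calls, 451 in all, varied when single libraries were left out. The count was 42, 53 and 439 without HS3A8-high replicates 1, 2 and 3, and 56, 0 and 244 without HS3A8-low replicates 1, 2 and 3. Fewer libraries also leave the test less able to call a difference.

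On the far side of Gpc3, Rtl8c, a gene derived from a retrotransposon, was called lower in HS3A8-high cells. It was at 0.481 ± 0.345 CPM in HS3A8-high cells and 3.38 ± 0.626 CPM in HS3A8-low cells (SD, n = 3 each), with a log2 difference of -2.80 (SE 0.548, adjusted p 0.0424 by edgeR). Gm14597, which overlaps it on the other strand, had a log2 difference of -3.01 (SE 0.647) and an adjusted p of 0.0557 by edgeR. Reads from the pair cannot be told apart where the strand setting of the counting is not given.

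**Figure D4:**
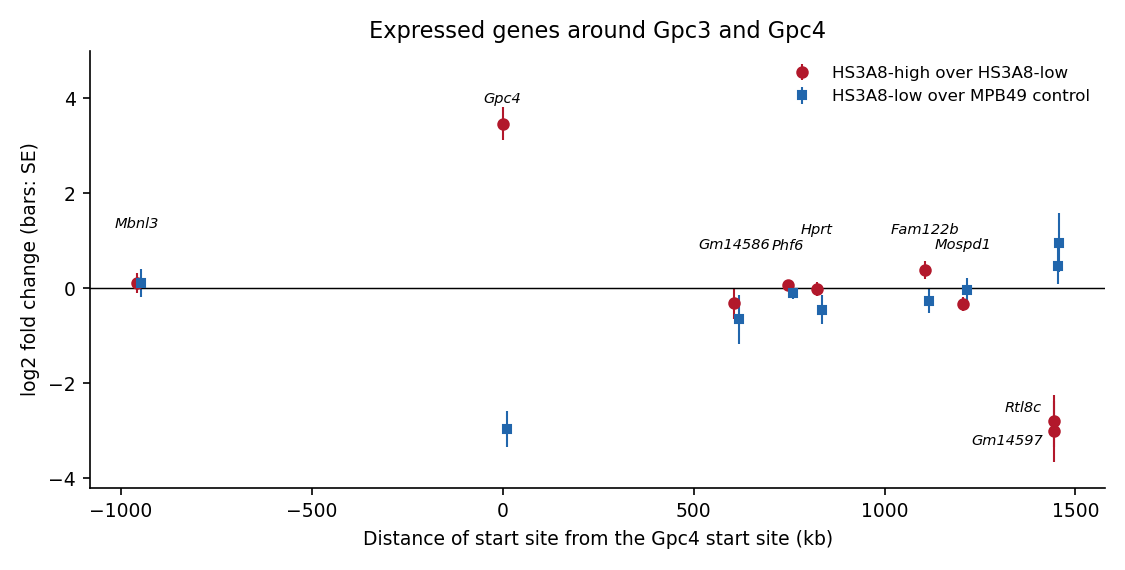
Log2 fold change (vertical axis, bars are the SE) of expressed genes near Gpc3 and Gpc4 against the distance of their start site from that of Gpc4 in kb; circles are HS3A8-high over HS3A8-low and squares are HS3A8-low over the MPB49 control. Gpc4 is at 3.46 and -2.97, while Mbnl3, Phf6 and Hprt lie within 0.11 of 0 for the circles.

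Among all carriers of HS, glypicans were a minority by transcript number. Glypicans made up 11.0 ± 0.685% of the TPM of glypicans and 13 other core proteins in HS3A8-high cells, 2.49 ± 1.12% in HS3A8-low cells and 5.95 ± 1.80% in the control (SD, n = 3 each). Serglycin (Srgn), a core protein of secretory granules, had the highest TPM of these genes in each group. Without Srgn, Cd44 and Tgfbr3, which carry HS only in part or in some cells, glypicans made up 79.8 ± 2.52%, 50.9 ± 16.8% and 69.6 ± 5.29% (SD, n = 3 each). By mean TPM Gpc4 ranked 3 of 19 core proteins in HS3A8-high cells and in the control, and 6 of 19 in HS3A8-low cells.

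Of the 13 other core proteins, 8 were tested between HS3A8-high and HS3A8-low cells, and 1 passed, Srgn, at 207 ± 16.5 CPM against 353 ± 48.2 CPM (SD, n = 3 each; log2 difference -0.80, SE 0.116, adjusted p 0.0253 by edgeR). Its control libraries were at 356 ± 157 CPM (SD, n = 3). Over all genes tested, edgeR called 3.21% lower in HS3A8-high cells. The list's median log2 difference was -0.03, the same as the -0.03 of all genes tested. Col18a1, a basement membrane collagen with HS chains, had a log2 difference of -2.48 (SE 0.979) and passed only with a replicate block (adjusted p 0.0373 by edgeR). The block called 8.27% of all genes lower in HS3A8-high cells. The cell-surface syndecans Sdc1 (0.30, SE 0.362), Sdc2 (-0.99, SE 0.432) and Sdc3 (0.21, SE 0.587) did not pass, and Sdc4 was not tested.

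Enzymes that build and edit the chain were not called between the fractions. Of 32 such genes in 4 lists, 19 were tested and 0 were called by edgeR or by DESeq2, with 3 at an unadjusted p under 0.05. Their median log2 difference was 0.13. Among all genes tested, edgeR called 0.611% higher and 3.21% lower in HS3A8-high cells, and DESeq2 called 413 and 892 genes. By edgeR, 0 of 19 is close to that share. When replicate numbers entered the fit as a block, 1 was called higher in HS3A8-high cells, the 6-O-sulfotransferase Hs6st1, and 2 lower, the N-deacetylase and N-sulfotransferase Ndst1 and the xylose phosphatase Pxylp1. Over all 11791 genes the block called 3.32% higher and 8.27% lower in HS3A8-high cells, so at this list size these counts are close to the share of all genes. Ndst1 was at 8.65 ± 3.39 CPM in HS3A8-high cells and 18.6 ± 8.64 CPM in HS3A8-low cells (SD, n = 3 each), with an adjusted p of 0.191 by edgeR without the block and 0.0240 with it. Pxylp1, which removes a phosphate from the linkage xylose, was at 9.13 ± 3.54 and 16.1 ± 4.39 CPM (SD, n = 3 each), with adjusted p-values of 0.215 and 0.0310 by edgeR. Hs6st1 was at 166 ± 49.9 and 132 ± 46.8 CPM (SD, n = 3 each), with adjusted p-values of 0.670 and 0.0449 by edgeR.

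The 4 chain polymerases tested, with Ext1 (0.39, SE 0.246) and Ext2 (0.22, SE 0.0844) as the copolymerase that extends the chain, had log2 differences above 0 and none passed. Heparanase (Hpse), which cuts HS chains, and the endosulfatase Sulf2 were low, with log2 differences of -2.08 (SE 1.79) and -1.51 (SE 1.28). Hpse was highest in the libraries in which Gpc1 was highest, at 19.4 CPM in replicate 3 of HS3A8-low and 5.29 CPM in replicate 3 of HS3A8-high, against 0 to 1.62 CPM in the 7 others. Most 3-O-sulfotransferases had no or few counts.

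**Figure D5:**
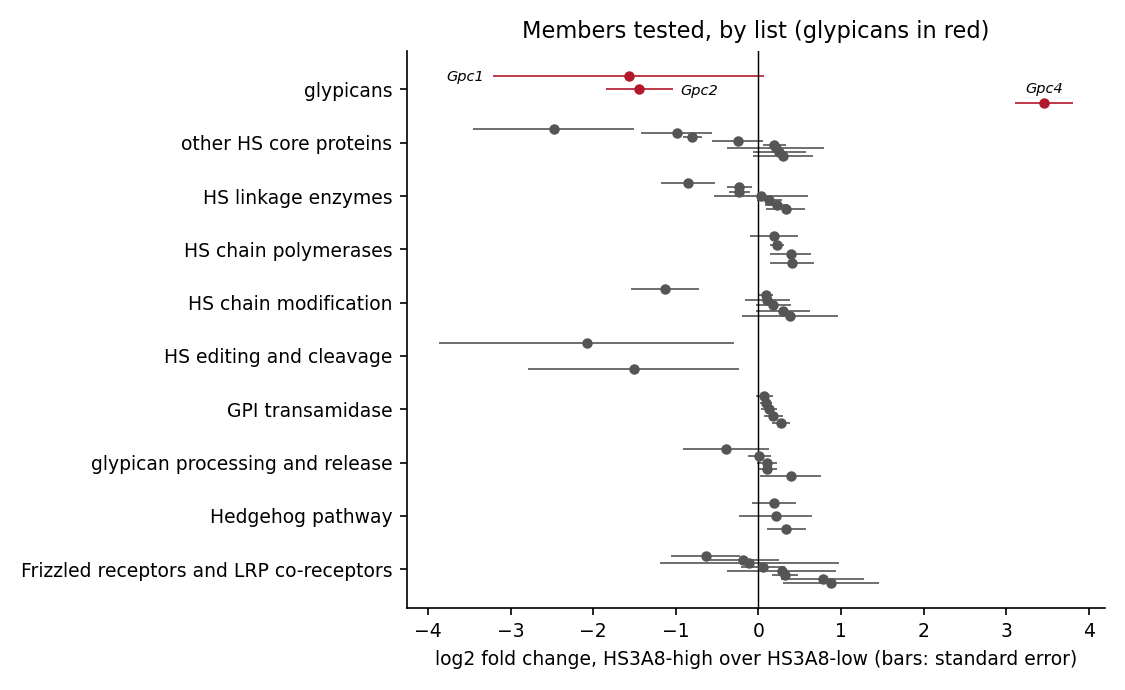
Log2 fold change of HS3A8-high over HS3A8-low (horizontal axis, bars are the SE) for every tested member of the glypican list and 9 related lists, 1 point per gene. Gpc4 at 3.46 lies apart from the other points, of which Col18a1 at -2.48 is the farthest from 0.

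Genes that anchor, cut or release glypicans did not pass either. All 5 subunits of the GPI transamidase, which attaches the anchor, were tested, with log2 differences from 0.07 (Pigk, SE 0.104) to 0.27 (Pigt, SE 0.110) and 0 calls by edgeR or DESeq2, with 1 at an unadjusted p under 0.05. Of 8 genes for processing and release 5 were tested and 0 were called by edgeR or DESeq2, also at an unadjusted p under 0.05. Among all 11791 genes tested, edgeR called 0.611% higher and 3.21% lower in HS3A8-high cells, and DESeq2 called 413 and 892. An unadjusted edgeR p under 0.05 was reached by 844 and 1495 genes. At these list sizes 0 calls by edgeR are close to the share of all genes. Furin, the convertase that cleaves glypican core proteins, was at 65.3 ± 24.5 CPM in HS3A8-high and 83.4 ± 60.6 CPM in HS3A8-low cells (SD, n = 3 each). Notum, which releases glypicans by cutting the anchor, had no counts in any library, while Gpld1, a phospholipase that acts on such anchors, was at 9.02 ± 2.68 and 6.74 ± 2.71 CPM (SD, n = 3 each).

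Genes of the signals that glypicans are known to modulate were partly absent. Of 11 Hedgehog pathway genes 3 were tested, the receptor Ptch1, the transducer Smo and the inhibitor Sufu, and 0 were called by edgeR or DESeq2, also at an unadjusted p under 0.05. Shh, Gli2 and Gli3 had no counts. Of 14 Wnt receptor genes 8 were tested and 0 were called by edgeR or DESeq2, also at an unadjusted p under 0.05. The shares of all 11791 genes called by edgeR were 0.611% higher and 3.21% lower in HS3A8-high cells. DESeq2 called 413 and 892 of them, and 844 and 1495 had an unadjusted edgeR p under 0.05. For lists this small, 0 calls by edgeR are close to those shares. The Frizzled receptor Fzd7 was at 50.5 ± 8.59 CPM in HS3A8-high and 39.9 ± 3.6 CPM in HS3A8-low cells (SD, n = 3 each).

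The marker lists showed which other transcripts differed along with Gpc4. The 16 erythroid markers summed to 16809 to 17515 CPM in HS3A8-high, 15118 to 16402 CPM in the control and 12971 to 14299 CPM in HS3A8-low libraries, in the same order as Gpc4. Of these markers, 1 was called higher in HS3A8-high cells by edgeR (4 by DESeq2, 5 with the block). Over all genes tested, 0.611% were called in that direction by edgeR and 3.32% with the block, and DESeq2 called 413 of 11791. The 16 megakaryocyte markers summed to 55.2 to 84.0 CPM in HS3A8-high, 224 to 335 CPM in the control and 315 to 633 CPM in HS3A8-low libraries. Of the 14 tested, 8 were called lower in HS3A8-high cells by edgeR (11 by DESeq2, 11 with the block). Itga2b, a platelet integrin, was at 5.78 ± 1.94 CPM in HS3A8-high cells and 91.9 ± 29.9 CPM in HS3A8-low cells (SD, n = 3 each; log2 difference -4.01, adjusted p 0.00712 by edgeR). Of the 10 T and NK cell markers 3 were called lower in HS3A8-high cells (5 by DESeq2, 5 with the block), with sums of 4.59 to 38.2 CPM against 200 to 249 CPM in HS3A8-low libraries. Of the stem and multipotent progenitor markers 3 of 11 tested were called lower in HS3A8-high cells (9 by DESeq2, 7 with the block), and of the stromal and endothelial markers 3 of 4 (4 by DESeq2, 3 with the block). Over all genes tested, 3.21% were called lower in HS3A8-high cells by edgeR and 8.27% with the block, and DESeq2 called 892 of 11791. In 3 marker lists edgeR called none, namely basophil and mast cell (3 at an unadjusted p under 0.05, 2 called by DESeq2), B cell (1 and 1) and granulocyte-monocyte (0 and 0, but 8 called lower with the block). The part of these markers in the Gpc4 and Gpc2 values was not tested.

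The gate was visible in part. Kit was at 634 ± 154, 536 ± 163 and 570 ± 131 CPM in HS3A8-high, HS3A8-low and control libraries, and Cd34 at 5.02 ± 5.30, 54.4 ± 23.6 and 32.6 ± 15 CPM (SD, n = 3 each), although the cells had been gated as CD34-. The markers listed as stromal and endothelial summed to 2.98 to 9.79 CPM in HS3A8-high libraries and 21.3 to 51.4 CPM in HS3A8-low libraries. Most came from Pdgfrb (41.6% of the sum over all libraries), Tek (32.3%) and Col1a2 (19.2%). Col1a1 gave 0.453%, and Pdgfra and Cdh5 were at 0 in all libraries, so the list does not name a cell type here. Which cells carried these transcripts, and their part in the glypican values, was not tested.

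The genes whose pattern was most like that of Gpc4 had far smaller differences. Over the 9 libraries, among 9348 genes that averaged 5 CPM or more, the 10 highest Pearson correlations with Gpc4 on the log2 scale ran from 0.946 to 0.964. The libraries fall into the 3 groups, so these values are a description of a shared group pattern. The highest were Ddx19a (an RNA helicase, 0.964), Prmt7 (an arginine methyltransferase, 0.962), Car1 (the erythroid carbonic anhydrase, 0.962) and Tars2 (a mitochondrial threonyl-tRNA synthetase, 0.960). The others were Gorasp1, Atad3a, Cct3, Tmc8, Cops7a and Ces2g.

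All 10 had their control mean between the means of the fractions. Their log2 differences between HS3A8-high and HS3A8-low cells ran from 0.16 to 0.47, against 3.46 for Gpc4. Car1, for example, was at 5493 ± 210 CPM in HS3A8-high, 5161 ± 123 CPM in the control and 4208 ± 248 CPM in HS3A8-low libraries (SD, n = 3 each). For Gpc2, the glypican next in level per length, the 5 most similar genes were Spata6 (0.941), Zc3h12a (0.926), Tapbpl (0.916), Iffo1 (0.891) and Fam3a (0.890), of which Spata6 differed most, at 4.33 ± 0.377 CPM in HS3A8-high and 10.7 ± 1.86 CPM in HS3A8-low cells (SD, n = 3 each).

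Within the comparison of HS3A8-high with HS3A8-low cells, groups did not overlap for 28.7% of all genes tested. Calls were more often higher in HS3A8-low cells (379 genes) than in HS3A8-high cells (72 genes), and with replicate numbers as a block these counts were 975 and 392.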

How the data were processed

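Bulk RNA-seq of sorted mouse MEPs was measured in 9 libraries, 3 per group, as labelled. The authors aligned reads with STAR 2.5 to mm10 and counted them per gene with HTSeq 0.6.1, per the submitters' processing notes, and deposited raw counts. The annotation release and strand setting are not given in the sources used here. Gene symbols and exon lengths came from GENCODE M21, which matched 34490 of 35275 identifiers (97.8%). Counts were tested with edgeR 4.0.16 (filterByExpr, TMM, quasi-likelihood test, Benjamini-Hochberg adjustment, threshold 0.05) in R 4.3.3, 2 groups per fit, and on all 9 libraries for the control against the mean of both fractions. DESeq2 1.42.0 was an alternative, and the fit was tested on simulated counts. The limits given for a count of 0 cover counting error only. SEs come from the fits, which estimate the spread between libraries, and SDs are between libraries. Deviations of same-numbered HS3A8-high and HS3A8-low libraries from their group means correlated at 0.493, 0.325 and 0.509, whereas those of the control did not. The main fits did not pair libraries, and replicate numbers entered only an alternative fit, as a block. Named genes were all members, list members that passed or were needed to describe a list, genes within 1 Mb of a glypican with at least 1 CPM, and the 10 (Gpc4) or 5 (Gpc2) genes with the highest correlation. The members and lists were chosen with earlier results of these data known.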

Additional observations from a re-analysis of the deposited data

How the results depend on the processing

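Gpc4 kept its direction in all 13 alternatives between the fractions (3.16 to 3.81 on the log2 scale) and in all 12, 12 and 15 in the 3 comparisons with the control, and Gpc2 likewise. The Gpc4 weight for the control ran from 0.62 to 0.717. Gpc1 did not: between the fractions, leaving out single replicates gave -4.22 to 1.09, HS3A8-high against the control -1.08 to 2.17, and the control against the mean of both fractions 0.28 without replicate 3 of both fractions, an alternative chosen after seeing the data. DESeq2's Wald test called Gpc4 in HS3A8-low against the control (-3.00) and in the control against the mean of both fractions (1.22). The cause was not tested. All of these fits reuse libraries of the comparison in which Gpc4 stood out. Its kept direction and these calls are therefore no independent check on it.

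Counts of calls moved more. Between the fractions the 451 calls became 1305 with DESeq2, 1367 with the replicate block, 748 without replicate 3 of both fractions, and 0 to 439 when single replicates were left out. HS3A8-high against the control gave 138 calls with DESeq2, 9 with no count filter, 32 with all 9 libraries in 1 fit, 0 with the replicate block and 0 to 5 without single replicates. DESeq2 called 94 genes in HS3A8-low against the control and 14 in the control against the mean of both fractions, where the replicate block gave 0. Control libraries share only a number with the sorted ones. Without Srgn, Cd44 and Tgfbr3 the glypican share became 79.8%, 50.9% and 69.6% in HS3A8-high, HS3A8-low and control libraries, by construction, since the denominator is smaller. Gpc3, Gpc5 and Gpc6 were limited by depth.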
